A study of Mus musculus with 12 samples.

Results

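Interferon regulatory factors (IRFs) and signal transducers and activators of transcription (STATs) were followed in primary brain cultures of mice with a frameshift deletion in 1 copy of *Myt1l* and of mice with none. The genes *Irf1*, *Irf2*, *Irf3*, *Irf5*, *Irf7*, *Irf8*, *Irf9*, *Stat2* and *Stat3* were chosen by name, 9 of the 55397 genes in the count table, and 9 of 9 passed the low-count filter. *Irf7*, *Irf9* and *Irf3* had the clearest differences: *Irf7* was 2.04-fold, *Irf9* 1.46-fold and *Irf3* 1.32-fold higher in *Myt1l* (+/−) than in (+/+) cultures, with 3 animals each, although none of these passed an adjusted p under 0.1. *Stat2*, *Stat3*, *Irf1*, *Irf2* and *Irf8* had fold changes of 0.951, 1.03, 0.963, 1.04 and 1.07, and the 1.78-fold difference of *Irf5* rested on a single (+/−) animal.

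IRFs and STATs turn the detection of viral nucleic acids and of cytokines into transcription. Receptors of nucleic acids lead to phosphorylation of IRF3 and IRF7, which switch on type I interferon genes. Interferon then acts through Janus kinases on STAT2, which joins IRF9 in the complex ISGF3 at interferon-stimulated response elements (ISREs). Interferon gamma acts mainly at gamma-activated sites (GAS), and IRF1 is one of its early targets. IRF5 and IRF8 are best known from myeloid cells, microglia among them, and STAT3 carries the signal of gp130 cytokines and takes part in the formation and the reactivity of astrocytes.

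The (+/−) animals carried, on 1 allele of *Myt1l*, a germline deletion of 7 bp within exon 6 that CRISPR/Cas9 had made in zygotes, and the (+/+) animals carried none. All cultures were set up from pups at postnatal day 0, received 2 µM Ara-C, which kills dividing cells, and were harvested at day in vitro 11. The labels give cortex, C57BL/6J and male sex for every animal, whereas the study's methods name hippocampus or cortex as the tissue and C57BL/6N as the strain. RNA of 3 (+/−) animals (505, 506 and 508) and 3 (+/+) animals (510, 511 and 513) was sequenced in 2 libraries per animal, and the counts of both were summed, so that an animal was 1 replicate.

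Summed over genes, the counts of an animal came to 40642699 to 43745258 in (+/−) and 43129302 to 52833161 in (+/+) cultures. Such cultures hold several cell types, and in bulk RNA fewer cells of a type and less RNA per cell cannot be told apart. The summed level of 20 pan-neuronal markers was 4497, 7359 and 8017 CPM, counts scaled to library size, in (+/−) animals 505, 506 and 508, against 8839, 9759 and 8249 CPM in (+/+) animals 510, 511 and 513. Microglia markers summed to 478, 285 and 281 CPM in the same (+/−) animals, against 181, 223 and 226 CPM in the (+/+) animals, and choroid plexus markers to 1557, 732 and 397 CPM in the (+/−) animals, against 273, 169 and 87.5 CPM in the (+/+) animals. Animal 505 was thus lowest in the neuronal and highest in these non-neuronal markers. Animal 511 held 18805 *Xist* counts and the other 5 animals 5 to 10, although all are labelled male. *Myt1l* itself was at 89.0, 146 and 165 CPM in the (+/−) animals, against 119, 147 and 109 CPM in the (+/+) animals, and since a gene count does not show a 7 bp deletion, these overlapping values do not check the genotype labels.

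Per length of exon, *Stat3* was the most abundant of the 9 genes, with 23.8 ± 1.27 CPM per kb in (+/−) and 23.1 ± 2.38 CPM per kb in (+/+) cultures (SD, n = 3 each). In (+/+) cultures *Stat2* followed with 5.96 ± 0.394 CPM per kb. In (+/−) cultures *Stat2* was at 5.67 ± 0.0748 CPM per kb, below *Irf3* at 7.00 ± 0.920 CPM per kb. In the (+/+) animals *Irf3*, *Irf1*, *Irf2* and *Irf9* came next at means of 5.30, 4.63, 3.57 and 3.25 CPM per kb, and *Irf7*, *Irf8* and *Irf5* last at 0.828, 0.400 and 0.309 CPM per kb. Neighbours in this order had separate ranges over the (+/+) animals at 3 places, between *Stat3* and *Stat2*, between *Irf9* and *Irf7*, and between *Irf7* and *Irf8*. Neighbours from *Stat2* to *Irf9* overlapped, as did *Irf8* and *Irf5*, whereas *Stat2* and *Irf3* both lay wholly above *Irf2* and *Irf9*.

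The promoters of the 9 genes were searched for the letters of the elements that these factors bind. Windows from 250 bases before to 50 bases after each start were taken from RefSeq on GRCm38.p6, the assembly that mm10 names, and gave 12 promoters for the 9 genes. The letters GAAANNGAA, most of the ISRE core, stood on either strand of 2 of these 12 promoters and of 8.56% of all 32851 promoters. These were promoters of 2 of the 9 genes. The letters TTCNNNGAA of a GAS, which read the same on both strands, stood in 3 of the 12 promoters, of 3 genes, and in 8.3% of all promoters. AAAGTT, the motif of MYT1L itself, stood on either strand in 1 of the 12 promoters, that of *Irf3*, and in 14.1% of all promoters. The matching stretches are shown to place these letters by gene. Capitals mark ISRE letters, read from the other strand, in *Stat2*, first an ISRE and then a GAS match in *Irf2*, GAS matches in *Irf1* and *Irf8*, and both matches of AAAGTT, read from the other strand, in *Irf3*. All 5 genes lie on the plus strand.
Irf1, chr11:53769888-53769967: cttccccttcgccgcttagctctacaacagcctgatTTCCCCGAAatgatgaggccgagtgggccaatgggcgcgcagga
Irf2, chr8:46739495-46739574: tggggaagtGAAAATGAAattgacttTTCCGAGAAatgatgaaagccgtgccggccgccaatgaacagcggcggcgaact
Irf8, chr8:120736160-120736239: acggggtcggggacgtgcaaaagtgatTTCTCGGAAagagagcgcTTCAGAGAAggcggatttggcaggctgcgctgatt
Stat2, chr10:128270248-128270327: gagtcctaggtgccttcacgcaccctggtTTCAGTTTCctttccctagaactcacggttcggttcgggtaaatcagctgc
Irf3, chr7:44997493-44997572: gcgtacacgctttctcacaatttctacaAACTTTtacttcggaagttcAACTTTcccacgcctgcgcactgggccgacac
The windows of *Irf7*, *Irf9*, *Irf5* and *Stat3* held none of the 3 sets of letters. The RefSeq starts of *Irf9* lay 414 and 1008 bases, and that of *Irf7* 57 bases, inside the gene as the count table gives it. A match describes the sequence and is not evidence that a factor is bound there.

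*Irf3* encodes the constitutively present factor that is activated first after nucleic acids are sensed, and it lies on chromosome 7 of mm10 from 44997648 to 45002848 on the plus strand (ENSMUSG00000003184.15). Its level was 27.6, 23.2 and 21.5 CPM in (+/−) animals 505, 506 and 508, against 18.1, 17.0 and 19.6 CPM in (+/+) animals 510, 511 and 513. Every (+/−) animal lay above every (+/+) animal, with the smallest gap between 508 and 513. The means were 24.1 ± 3.17 CPM in (+/−) cultures and 18.2 ± 1.33 CPM in (+/+) cultures (SD, n = 3 each). Their difference had p = 0.1 by a two-sided exact permutation test, which cannot give less with 3 animals a genotype. On the log2 scale the fold change was 0.40 (SE 0.12), with an unadjusted p of 0.0107 and an adjusted p of 0.168 by the quasi-likelihood test of edgeR, and it was 0.29 without animal 505.

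*Irf7* encodes the factor that interferon itself induces and that amplifies the production of type I interferon. It lies on chromosome 7 from 141262706 to 141266481 on the minus strand (ENSMUSG00000025498.15). Its level was 8.28, 4.83 and 5.97 CPM in (+/−) animals 505, 506 and 508, against 2.09, 3.0 and 4.28 CPM in (+/+) animals 510, 511 and 513. No (+/−) animal overlapped the (+/+) animals, but 513 came close to 506, and 505 stood above the other (+/−) animals. The log2 fold change of 1.03 (SE 0.30, edgeR unadjusted p = 0.0092, adjusted p = 0.167) was the largest of the 9 genes and larger than that of 97.1% of all tested genes. It was lowest without (+/+) animal 510 and without (+/−) animal 505, at 0.79 each, and highest without (+/+) animal 513, at 1.31 (edgeR adjusted p = 0.0416). The 2 libraries of an animal differed by at most 0.23 on the log2 scale, against an SD of 0.46 between animals of a genotype, so the spread lay between animals.

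*Irf9* encodes the DNA-binding subunit of ISGF3 and lies on chromosome 14 from 55603571 to 55610030 on the plus strand (ENSMUSG00000002325.15). Its level was 29.0, 21.5 and 26.5 CPM in (+/−) animals 505, 506 and 508, against 14.8, 15.4 and 22.3 CPM in (+/+) animals 510, 511 and 513. The genotypes overlapped, since (+/+) animal 513 lay above (+/−) animal 506. Its log2 fold change was 0.55 (SE 0.18, edgeR unadjusted p = 0.0179, adjusted p = 0.179), and the two-sided exact permutation test of the CPM gave p = 0.2. Without animal 513 it was 0.75 (edgeR adjusted p = 0.0322), and without 510 it was 0.43.

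*Stat2*, whose protein joins IRF9 in ISGF3, differed by less than its SE (chromosome 10, 128270559 to 128292849, plus strand, ENSMUSG00000040033.16). Its level was 34.1, 33.4 and 33.3 CPM in (+/−) animals 505, 506 and 508, against 32.7, 37.2 and 36.0 CPM in (+/+) animals 510, 511 and 513. The (+/−) values lay within 1 CPM of each other and inside the range of the (+/+) animals. This gave a log2 fold change of −0.07 (SE 0.08, edgeR adjusted p = 0.594).

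*Irf9* and *Stat2* thus differed unequally, and their ratio, which was chosen after the values were seen, gives the size of this. *Irf9* over *Stat2* was 0.849, 0.643 and 0.797 in (+/−) animals 505, 506 and 508, against 0.454, 0.415 and 0.620 in (+/+) animals 510, 511 and 513. The ratio was higher in every (+/−) than in every (+/+) animal (two-sided exact permutation p = 0.1). Since the pair was picked for its unlike values, this p is no test. Other unplanned ratios were formed as well. *Irf7* over *Irf3* and *Irf1* over *Irf2* overlapped between genotypes. *Irf5* over *Irf8* was 0.691, 0.369 and 0.438 in (+/−) animals 505, 506 and 508. In (+/+) animals 510, 511 and 513 it was 0.258, 0.367 and 0.357. The ranges of *Irf5* over *Irf8* thus did not overlap, but 506 (41 over 111 counts) and 511 (47 over 128 counts) were nearly equal. At such counts their order cannot be told, and 505 stood farthest apart.

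**Figure D1:**
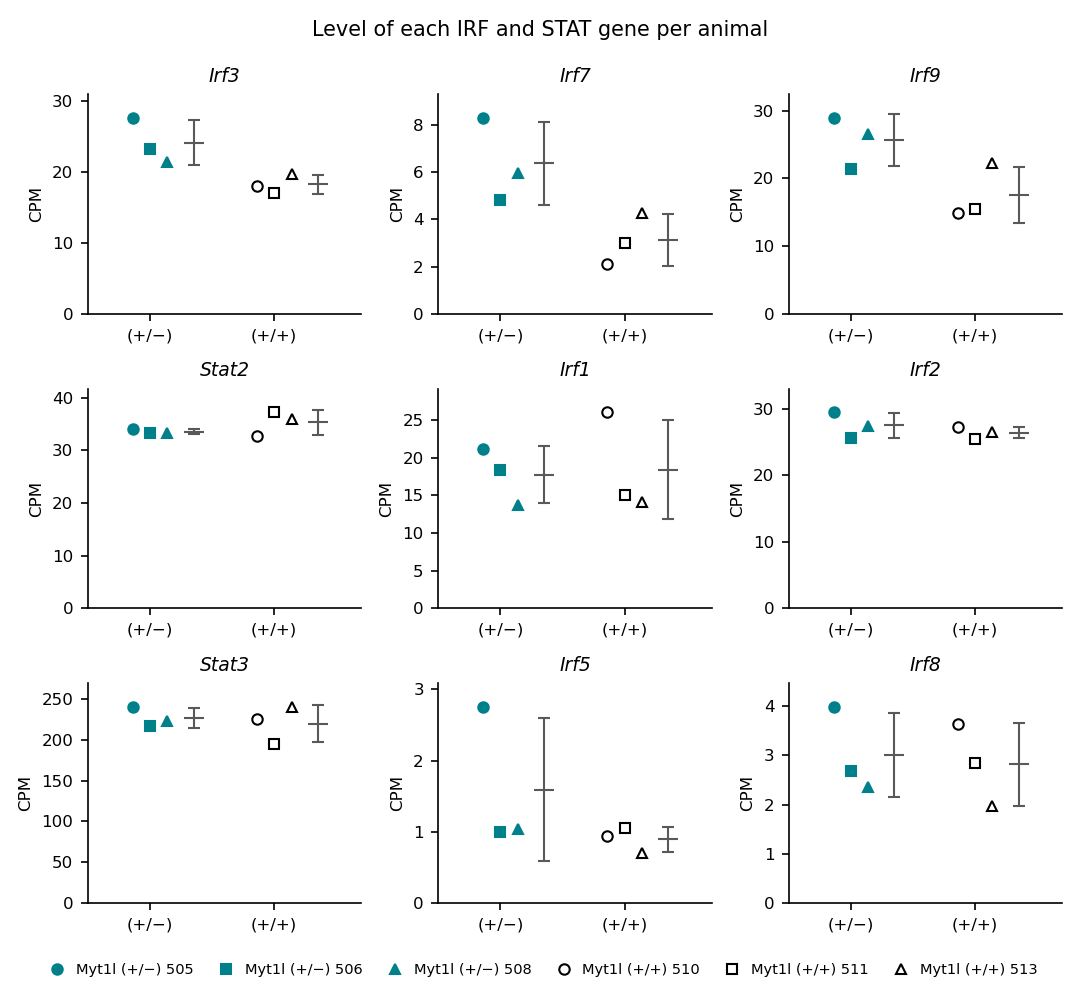
CPM of each of the 9 genes per animal, after scaling to library size. Filled teal symbols are *Myt1l* (+/−) and open black symbols (+/+) animals, with circle, square and triangle for 505, 506 and 508 and for 510, 511 and 513; the bar beside each group is the mean with the SD of 3 animals. In *Irf3* and *Irf7* every (+/−) animal lay above every (+/+) animal, in *Irf9* animal 513 reached above 506, and animal 505 was the highest of the 6 in 7 of the 9 genes.

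*Irf1*, an activator that interferon gamma induces early, varied more within a genotype than between genotypes (chromosome 11, 53770014 to 53778374, plus strand, ENSMUSG00000018899.16). Its level was 21.2, 18.3 and 13.7 CPM in (+/−) animals 505, 506 and 508, against 26.0, 15.0 and 14.2 CPM in (+/+) animals 510, 511 and 513. The highest and the lowest value stood in different genotypes, at 510 and 508, and the ranges overlapped, with only 510 above the (+/−) range. Its log2 fold change was −0.05 (SE 0.26, edgeR adjusted p = 0.904), and it turned to 0.27 without animal 510 and to 0.09 without 508.

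*Irf2*, which encodes the repressor that competes with IRF1 for the same sites, was the steadiest IRF gene (chromosome 8, 46739732 to 46847458, plus strand, ENSMUSG00000031627.9). Its level was 29.4, 25.7 and 27.3 CPM in (+/−) animals 505, 506 and 508, against 27.2, 25.5 and 26.5 CPM in (+/+) animals 510, 511 and 513. The genotypes overlapped throughout, and the log2 fold change was 0.06 (SE 0.09, edgeR adjusted p = 0.687). The SD between animals of a genotype was 0.08 on the log2 scale for *Irf2* and 0.41 for *Irf1*, with 1063 to 1417 counts per animal for *Irf2* and 559 to 1353 for *Irf1*.

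*Stat3*, with 8772 to 11726 counts per animal the most deeply counted of the 9 genes, had overlapping values in both genotypes (chromosome 11, 100885098 to 100939540, minus strand, ENSMUSG00000004040.16). It was at 240, 217 and 223 CPM in (+/−) animals 505, 506 and 508, against 225, 195 and 240 CPM in (+/+) animals 510, 511 and 513. Animal 505 and (+/+) animal 513 were nearly equal at the top, and 511 was lowest. With a log2 fold change of 0.04 (SE 0.11, edgeR adjusted p = 0.808), its difference was under its SE.

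*Irf5*, which encodes a factor that acts behind Toll-like receptors in myeloid cells, was the least deeply counted of the 9 genes (chromosome 6, 29526625 to 29541871, plus strand, ENSMUSG00000029771.12). It had 125, 41 and 42 counts in (+/−) animals 505, 506 and 508, against 49, 47 and 30 counts in (+/+) animals 510, 511 and 513, or 2.75, 0.990 and 1.03 CPM in the (+/−) animals, against 0.941, 1.05 and 0.702 CPM in the (+/+) animals. Only animal 505 stood apart, and 506 and 508 lay inside the (+/+) range. Both libraries of 505 showed this, with 67 counts (exact 95% Poisson interval 51.9 to 85.1) and 58 counts (44.0 to 75.0), while the libraries of the other 5 animals held 10 to 27 counts. Such intervals cover counting error only. The log2 fold change of 0.83 (SE 0.43, edgeR adjusted p = 0.271) became 0.17 (SE 0.27) without animal 505. *Irf5* shares 411 of its 2905 exon bases with *Tnpo3* on the other strand, which had 3677 to 5020 counts per animal and a log2 fold change of −0.08.

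*Irf8*, a factor that microglia and other myeloid cells need to form, had 181, 111 and 96 counts in (+/−) animals 505, 506 and 508, against 190, 128 and 84 counts in (+/+) animals 510, 511 and 513 (chromosome 8, 120736358 to 120756694, plus strand, ENSMUSG00000041515.10). These were 3.99, 2.68 and 2.36 CPM in the (+/−) animals, against 3.65, 2.85 and 1.97 CPM in the (+/+) animals. The genotypes overlapped, with 505 and 510 highest as in *Irf1*. Its log2 fold change was 0.09 (SE 0.29, edgeR adjusted p = 0.85), and it was −0.17 without 505, −0.12 without 513 and 0.31 without 510. *Irf8* overlaps *Galnt2l* on the same strand over 20337 bp, with 0 shared exon bases. *Galnt2l* had 4465 to 5545 counts per animal and a log2 fold change of −0.05. Whether any of its reads were counted for *Irf8* is not known.

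At an adjusted p under 0.1, edgeR called 0 of the 9 genes and 0.0% of the 18264 genes tested. At an unadjusted p under 0.05, 3 of the 9 genes, *Irf3*, *Irf7* and *Irf9*, were higher in (+/−) cultures, where 13.2% of all tested genes were, and 0 were lower, where 9.11% were. Every (+/−) animal lay above every (+/+) animal in 2 of the 9 genes and in 15.5% of all tested genes, and below in 0 of the 9 and in 13.5% of all. The median log2 fold change of the 9 genes was 0.09, and that of all tested genes was 0.00313. DESeq2 on the same 6 animals called *Irf3*, *Irf7* and *Irf9* higher, at adjusted p of 0.0737, 0.0215 and 0.0773, among 7.42% of the genes to which it gave an adjusted p. edgeR without (+/+) animal 513 called the same 3 genes among 12.3% of the genes, and with no low-count filter it called *Irf7* and *Irf9* among 3.16%. limma voom on 12 libraries, with the animal as a correlated block, called these 3 genes among 12.4% of the genes. With the library number as a replicate block added it called them among 11.3%. Both fits take 2 libraries of each of the same 6 animals as observations and add no replicates. On the 6 summed animals limma voom called none of the 3, with adjusted p of 0.154 for *Irf3*, 0.146 for *Irf7* and 0.158 for *Irf9*. This fit and DESeq2 with genetic sex were among 12 alternatives that called 0 of the 9 genes. Without (+/+) animal 511, which goes against its label, *Irf7*, *Irf9* and *Irf3* had log2 fold changes of 1.00, 0.47 and 0.35 (edgeR adjusted p = 0.485, 0.501 and 0.493). Over all settings 2 to 4 of the 9 genes were higher at an unadjusted p under 0.05.

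**Figure D2:**
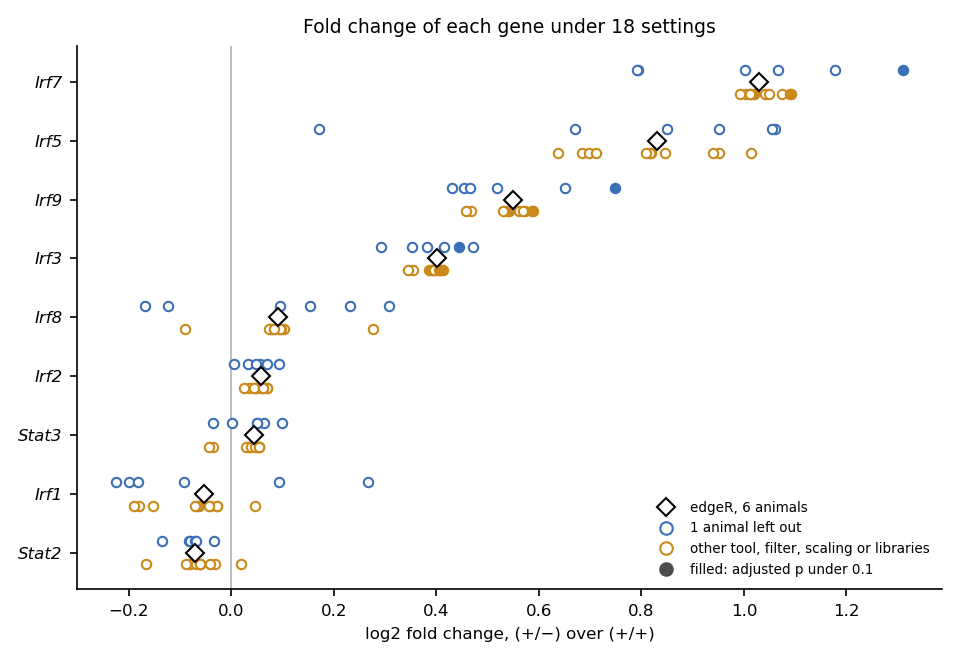
Log2 fold change, (+/−) over (+/+), of each gene with edgeR on 6 animals (black diamond), with 1 animal left out (blue circles) and with another tool, filter, scaling or set of libraries (orange circles); filled symbols have an adjusted p under 0.1. *Irf7*, *Irf9*, *Irf3*, *Irf5* and *Irf2* stayed above 0 in each of the 18 settings, and *Irf8*, *Stat3*, *Irf1* and *Stat2* fell on both sides of 0.

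Further genes of both families were looked at beside the 9. *Stat5a*, which encodes a STAT of cytokine receptors, was at 7.58, 5.43 and 5.63 CPM in (+/−) animals 505, 506 and 508, against 3.46, 3.83 and 5.22 CPM in (+/+) animals 510, 511 and 513, without overlap (log2 fold change 0.58, SE 0.21, edgeR adjusted p = 0.19). *Stat6* (0.26) and *Stat5b* (0.24) had smaller log2 fold changes and no overlap either, and *Stat4* (0.14) overlapped. *Irf4* had 2 to 17 counts per animal and was not tested.

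**Figure D3:**
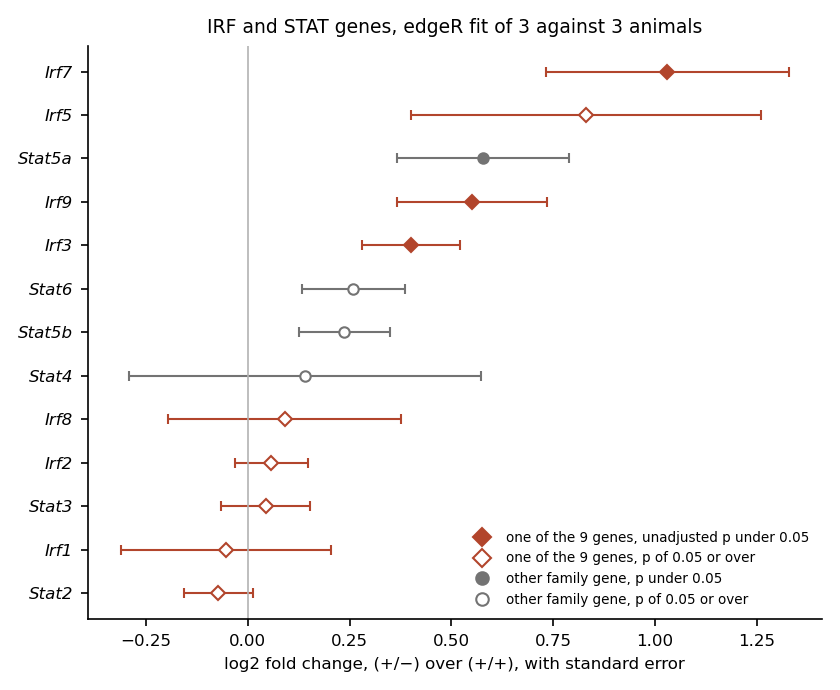
Log2 fold change, (+/−) over (+/+), with its standard error for the 9 genes (diamonds) and 4 further STAT genes (grey circles), from edgeR on 3 against 3 animals; filled symbols have an unadjusted p under 0.05. *Irf7*, at 1.03, lay farthest to the right, and *Stat5a* (0.58) lay to the right of *Irf9* (0.55), while *Stat2* (−0.07) lay at the left end.

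The rest of the pathway was described by lists, to be read beside all 18264 genes tested. Of all tested genes, 9200 had a positive log2 fold change, and 15.5% lay higher without overlap. At an unadjusted p under 0.05 with edgeR, 13.2% of all were higher and 9.11% lower. Interferon ligands were not detected beyond single counts: 9 of 10 listed genes, of interferon alpha, beta, kappa, epsilon and lambda, had 0 counts in every animal, which allows up to 0.0661 to 0.0738 CPM in (+/−) and 0.0576 to 0.0702 CPM in (+/+) animals at 3 counts, and *Ifng* had at most 4 counts. Sensors and adaptors upstream of IRF3 and IRF7 had a positive log2 fold change in 19 of 22 genes, with an unadjusted p under 0.05 in 12 higher and 1 lower and a median of 0.53 (0.26 without animal 505). Among them were *Zbp1*, a sensor of Z-form nucleic acids, at 1.69, *Ifih1*, the double-stranded RNA sensor MDA5, at 0.71, *Irak4*, a kinase behind Toll-like receptors, at 0.61, and *Ikbke*, a kinase of IRF3, at 0.60. The 3 negative genes were *Slc15a4* (−0.34), *Traf3* (−0.08) and *Tbk1* (−0.07), the last lower in every (+/−) than in every (+/+) animal. Receptors of interferons and Janus kinases were positive in 7 of 10 genes with a median of 0.09 (0.04 without animal 505 and 0.06 without (+/+) animal 511), led by *Ifngr1* (0.53) and *Il10rb* (0.48), with *Tyk2*, a kinase of the type I receptor, at −0.18.

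Genes that answer to type I interferon were positive in 27 of 27 tested. Of these, 21 had an unadjusted p under 0.05 and 16 did not overlap, and the median was 0.80 (0.60 without animal 505). *Ifi27* (0.95), *Lgals3bp* (0.95), *Ifitm3* (0.70) and *Oasl2* (1.08) had the smallest p. Genes of the interferon gamma response were positive in 19 of 22, with 10 at an unadjusted p under 0.05 and a median of 0.42 (0.23 without animal 505), and *Iigp1* (1.44), *Gbp2* (0.64), *Igtp* (0.57) and *Gbp3* (0.92) led. *Irf1*, itself a gene of that response, was at −0.05. Cytokines that act on STAT3 and their receptors were positive in 9 of 13 genes, with a median of 0.28 (0.12 without animal 505). Among them were the gp130 cytokine *Cntf* (0.57), the receptor chain *Il6ra* (0.77) and *Il6st* (0.50), which encodes gp130 itself, and also *Il10ra* (1.15), which encodes a chain of the interleukin 10 receptor and is no gp130 receptor. Genes of the STAT3 response fell on both sides, with 10 of 16 positive, 3 higher and 3 lower at an unadjusted p under 0.05 and a median of 0.05, which with 1 animal left out ran from −0.08 (without 506) to 0.15 (without 508) and was −0.03 without (+/+) animal 511. There *Fos* (0.39) and *Socs3* (0.49) were higher, and *Myc* (−0.42) and *Pim3* (−0.40) lower. The genes listed as inhibitors of the pathway were positive in 6 of 18 with a median of −0.08. *Ptpn6* (1.05), a phosphatase of blood and myeloid cells, stood at one end, and *Pias4* (−0.31), *Irf2bpl* (−0.20) and *Socs7* (−0.21) were below 0. This holds for the listed genes only, since *Socs3* and *Usp18* (1.17) were counted in the response lists and not here. edgeR called 0 genes of any list at an adjusted p under 0.1.

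**Figure D4:**
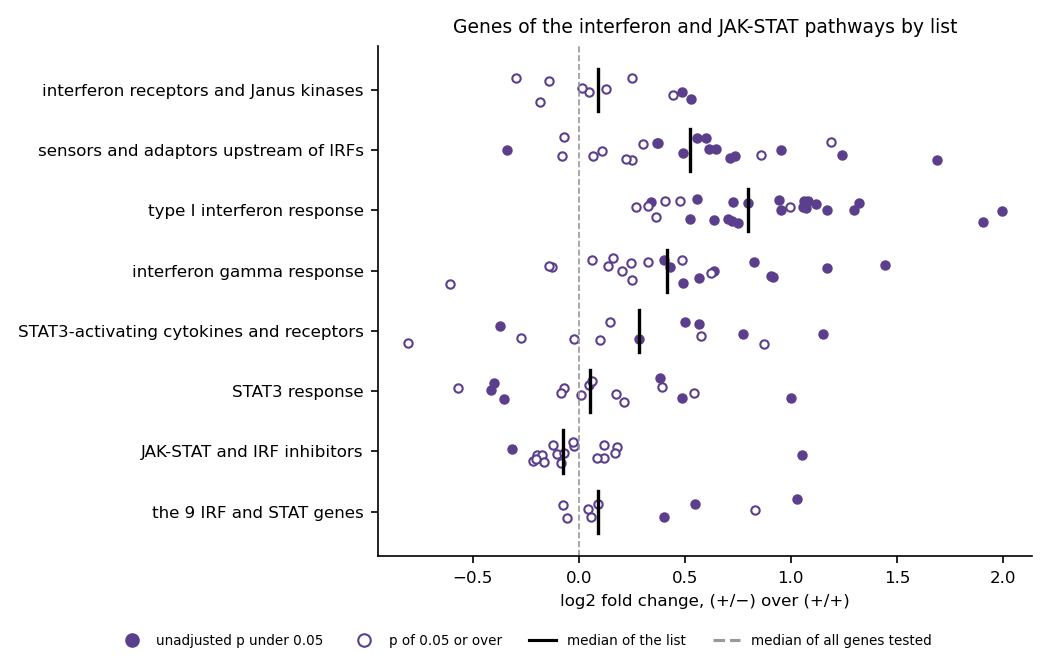
Log2 fold change, (+/−) over (+/+), of the tested genes of 7 pathway lists and of the 9 IRF and STAT genes. Each circle is 1 gene, filled at an unadjusted p under 0.05 from edgeR. The black bar is the median of the list and the dashed line the median of all tested genes. The type I interferon response has its median at 0.80, the listed inhibitors at −0.08 and the 9 genes at 0.09.

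Microglia markers lay higher in (+/−) cultures: 19 of 19 tested had a positive log2 fold change (median 0.96, and 0.56 without animal 505), 15 with an unadjusted p under 0.05, while *Siglech* had 0 counts in every animal. *Fcrls*, *Cx3cr1*, *Itgam* and *P2ry13* had the smallest p, with log2 fold changes of 1.16, 1.17, 0.91 and 1.45. The list also holds *Sall1*, which other brain cells express. Border macrophage markers summed to 92.9, 37.3 and 44.6 CPM in (+/−) animals 505, 506 and 508, against 17.1, 43.6 and 18.1 CPM in (+/+) animals 510, 511 and 513. No lymphocyte marker passed the filter (at most 24 counts in an animal). Ependymal markers were positive in 10 of 10 genes, each without overlap and at an unadjusted p under 0.05, with a median of 0.87 (0.78 without animal 505), and summed to 1349, 1148 and 1215 CPM in the (+/−) animals, against 769, 625 and 873 CPM in the (+/+) animals. Oligodendrocyte lineage markers had a median of 0.52, with 7 of 9 positive and 2 at an unadjusted p under 0.05. Astrocyte markers had a smaller median of 0.11, with 11 of 15 positive and 2 at an unadjusted p under 0.05. Their sums overlapped, at 8954 to 10493 CPM in (+/−) and 7830 to 9943 CPM in (+/+) animals. Endothelial and mural markers had a median of 0.32, with 8 of 9 positive and 1 at an unadjusted p under 0.05. The median of the meningeal fibroblast markers was 0.99, with 10 of 10 positive and 2 at an unadjusted p under 0.05, and −0.02 without animal 505. The part of cell numbers in the differences of *Irf7*, *Irf9* and *Irf3* was not tested, but each gene was set against the summed microglia markers.

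Per 1000 CPM of microglia markers, *Irf5* was at 5.76, 3.47 and 3.68 CPM in (+/−) animals 505, 506 and 508, against 5.19, 4.69 and 3.11 CPM in (+/+) animals 510, 511 and 513. The ranges overlapped, with means of 4.30 ± 1.27 CPM in (+/−) cultures and 4.33 ± 1.09 CPM in (+/+) cultures (SD, n = 3 each; exact permutation p = 1.0). *Irf8* was at 8.72 ± 0.594 CPM in (+/−) cultures and 13.9 ± 5.79 CPM in (+/+) cultures on this scale, with (+/+) animal 510 at 20.1 CPM (exact p = 0.2). *Irf8*, a gene of the same cells, had a log2 fold change under its SE in CPM, while 19 of 19 markers were positive. On the same scale *Irf7* was at 18.5 ± 2.39 CPM in (+/−) cultures and 14.7 ± 3.84 CPM in (+/+) cultures (exact p = 0.3) and *Irf9* at 76.8 ± 17.0 CPM in (+/−) cultures and 83.2 ± 14.8 CPM in (+/+) cultures (exact p = 0.7), with overlap in both. *Irf3*, higher in (+/−) cultures in CPM, was at 71.9 ± 12.5 CPM per 1000 CPM of markers in (+/−) cultures and 87.6 ± 11.8 CPM in (+/+) cultures, with overlap (exact p = 0.3), so that its direction turned. *Irf2*, *Stat2* and *Stat3* were lower per marker in every (+/−) than in every (+/+) animal (exact p = 0.1 for each). The marker sums were themselves higher in every (+/−) animal, at 281 to 478 CPM against 181 to 226 CPM. The division therefore lowers every gene in (+/−) relative to (+/+) cultures, the turned *Irf3* included. It shows no separate difference of these genes. With 6 markers that macrophages share left out, the same 3 genes lay lower without overlap and the other 6 overlapped.

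**Figure D5:**
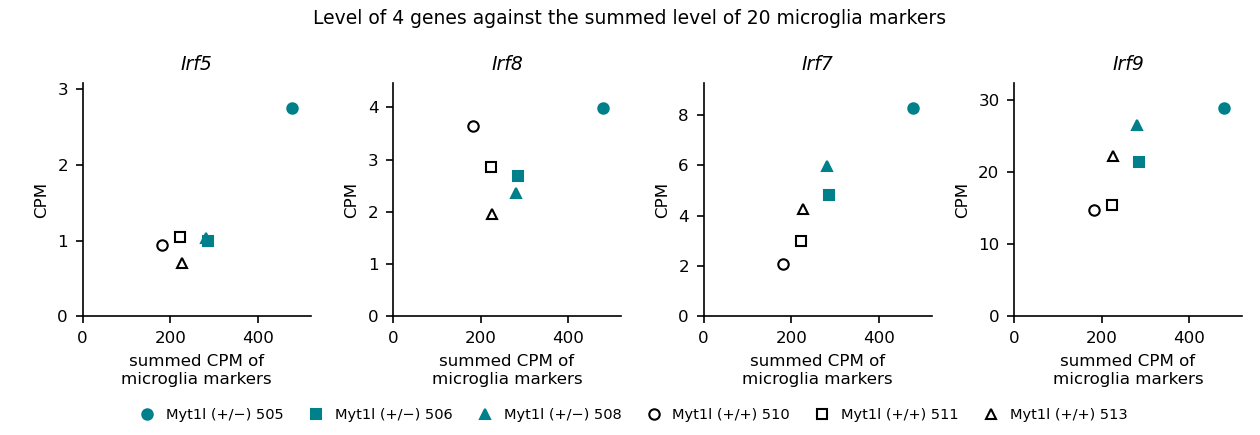
CPM of *Irf5*, *Irf8*, *Irf7* and *Irf9* against the summed CPM of 20 microglia markers, 1 symbol per animal; filled teal symbols are *Myt1l* (+/−) and open black symbols (+/+) animals. Animal 505 lies alone at 478 CPM of markers, with the highest *Irf5* level (2.75 CPM), while (+/+) animal 510, with the lowest marker sum (181 CPM), has an *Irf8* level of 3.65 CPM.

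The genes most like each of the 9 over the 6 animals were ranked by Pearson's r of log2 CPM among 15120 genes, as a description that the shared libraries and animal 505 bear on. For *Irf7* they were *Slc10a3*, *Iigp1* and *Mtbp* (r = 0.997, 0.994 and 0.994), and 518 genes had an r over 0.95. *Irf9* was most like *Nfia*, *Sh3pxd2b* and *Flvcr1*, with 980 genes over 0.95, and *Irf3* most like *Ift46*, *Ttc7* and *Lsm6*, with 468. For *Irf5* the nearest were the matrix genes *Pcolce*, *Loxl2* and *Mfap5* (r = 0.992, 0.990 and 0.990), and for *Irf8* they were *S1pr2*, *H2-K1* and *Nkd1*. *Irf1* was most like *Acer2*, *Nln* and *Pnpla2*, *Irf2* most like *Gm19391*, *Msi1* and *Rest*, and *Stat3* most like *Qser1*, *Pm20d2* and *Rsrp1*. *Stat2* had 2 genes over 0.95, *Gm20707* and *Efna5*, and *Tgfbrap1* came next.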

How the data were processed

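The authors mapped 100 bp paired-end reads of strand-marked (dUTP) libraries to mm10 with STAR and deposited raw counts per gene and library. The counting tool and its strand setting are not given in the sources used here. *Irf3*, *Irf7*, *Irf9* and *Stat3* share 45 to 123 exon bases with a neighbour, and how reads there were assigned is not known. The deposited normalised counts and the deposited table of fold changes and p-values were not used.

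Counts were summed per animal over its libraries and compared in R 4.3.3 with edgeR 4.0.16 (filterByExpr by genotype, TMM, quasi-likelihood test, Benjamini-Hochberg adjustment over 18264 genes, adjusted p under 0.1). The labels do not say how the libraries of an animal differ. Alternatives used DESeq2 1.42.0 and limma 3.58.1. Scripts were tested on simulated data. Positions are those of the count table, and 54345 of its 55397 IDs were found at the same place in GENCODE vM21.

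The 9 genes and all lists were chosen with earlier results of these data known. Named were the 9 genes, other family genes, up to 4 genes of a list with the smallest p, and the 3 genes most like each of the 9. *Siglech*, *Sall1*, *Ifng*, *Slc15a4*, *Traf3*, *Tbk1* and *Usp18* were named after their values were seen. Some listed genes are not reported here.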

Additional observations from a re-analysis of the deposited data

How the results depend on the processing

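Over 17 alternatives, *Irf7* kept a positive log2 fold change of 0.79 to 1.31, *Irf9* of 0.43 to 0.75, *Irf3* of 0.29 to 0.47, *Irf5* of 0.17 to 1.06 and *Irf2* of 0.01 to 0.09. The number of the 9 genes called higher, 0 with edgeR, was 2 without the low-count filter and 3 with DESeq2. It was also 3 with limma voom on 12 libraries, both without and with the library number as a replicate block (adjusted p of *Irf7* with the block 0.0218). On the 6 summed animals limma voom called 0 (adjusted p of *Irf7* 0.146). The 12 libraries come from the same 6 animals, so their calls are no separate support. For *Irf7*, limma voom gave 1.07 (SE 0.30, unadjusted p = 0.0072) on 6 animals. On 12 libraries without the replicate block it gave 1.09 (SE 0.27, unadjusted p = 0.00075). DESeq2, on the same 6 animals as edgeR, had the same SE of 0.30 for *Irf7* and an unadjusted p of 0.00070. With 1 animal left out the number called was 0 to 3, and 3 came without (+/+) animal 513. The library number was no pairing of animals. Signs turned for *Irf1* at library 1 alone (0.0454), *Irf8* at library 1 alone (−0.0901), *Stat2* at library 1 alone (0.0188) and *Stat3* with genetic sex in edgeR (−0.0351) and in DESeq2 (−0.0446). With 1 animal left out, *Irf1* ran from −0.22 to 0.27, *Irf8* from −0.17 to 0.31 and *Stat3* from −0.0363 to 0.0981. Genetic sex sets (+/+) animal 511 apart alone, so it takes that animal out of the comparison. The cause of these changes was not tested. The least counted genes were *Irf5*, at 30 to 125 counts per animal, and *Irf8*, at 84 to 190.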
